A study of Mus musculus with 6 samples.

Results

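The collagen genes of mouse 3T3 fibroblasts were compared between cells treated with GapmeR Ntep and cells treated with GapmeR control. A probe was taken as a collagen probe when the gene name in the deposited array files consisted of Col, a type number, the letter a and a chain number. This gave 63 of 55681 non-control probes, for 41 of 35527 gene names. By collagen type, 11 of the genes were fibrillar, 6 belonged to basement membrane type IV and 24 to all other types. A GapmeR is a chemically stabilised antisense molecule, and RNase H cleaves the RNA to which it pairs. Ntep, named A630089N07Rik in the files, is a mouse long non-coding RNA, and the study asked how cultured fibroblasts respond when it is silenced. All cells were of the established 3T3 line, grown in serum-containing medium and treated with a GapmeR at 50 nM for 48 h. Total RNA of 3 independent experiments was labelled in 1 colour, giving 3 arrays per treatment, and a replicate number stands for the same experiment in both groups.

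Collagens are secreted proteins in which 3 alpha chains wind into a helix. Fibrillar types such as I, III and V form the fibrils that give connective tissue its tensile strength, type IV forms the sheet of basement membranes, and type VI forms beaded filaments around cells. The remaining types decorate fibrils, anchor epithelia or span the plasma membrane. Fibroblasts are the main source of type I and type III collagen in connective tissue.

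The probe for Ntep had normalised signals of 472, 91.4 and 226 on the GapmeR Ntep arrays of experiments 1 to 3 and of 271, 272 and 361 on the GapmeR control arrays. In experiment 1 the array labelled GapmeR Ntep was thus the higher of the pair, and the groups overlapped. The difference of -0.48 on the log2 scale had a limma adjusted p of 0.632, and an exact two-sided permutation test gave p = 0.7. Results are therefore also given without both arrays of experiment 1. By qPCR, the study reported that this GapmeR lowered Ntep in the same cell line after the same time. It does not state whether the RNA on the arrays was among the samples measured by qPCR. Where the array probe lies relative to the GapmeR site was not determined, so its signal alone cannot decide whether Ntep was silenced. Of 11 fibroblast markers, 7 were well above background on all 6 arrays, among them Vim, Fn1 and Thy1, while Fap was not on any. The summed signal of the 11 was 289989 to 376045 on the GapmeR Ntep arrays and 376722 to 450224 on the controls. Vim, S100a4 and Fn1 made up most of it. By brightest probe, Thy1 was the only tested fibroblast marker that was not lower (log2 difference 0.05). The others ranged from -0.12 (Vim) to -1.84 (Dcn), with Postn at -1.27, Pdgfra at -0.95 and Pdgfrb at -0.76. None of them had an adjusted p under 0.05 (limma, unpaired). Of 6 macrophage markers, Cd68, Csf1r and Itgam were well above background on all arrays and Ptprc and Adgre1 on none, and the sum was 33013 to 62726 against 15484 to 21195. Itgam made up most of this sum. Cd68 (log2 1.21, limma adjusted p = 0.0287), Csf1r (3.19, 0.15) and Itgam (1.26, 0.0881) were higher after GapmeR Ntep by their brightest probes. A dimmer tested Itgam probe was at -0.03, and Lyz2, which was dim, was slightly lower (-0.18). The sum of 5 endothelial markers was 748 to 825 against 579 to 654. Pecam1 and Kdr were well above background on all arrays and made up most of this sum. Cdh5, Tek and Tie1 were well above background on none, and a second Kdr probe read 20 on all 6 arrays. The ranges of the epithelial, smooth muscle, chondrocyte and osteoblast lists overlapped between the groups. The part of these marker shifts in the collagen differences was not tested. In bulk RNA, fewer cells of a kind and less RNA per cell cannot be told apart.

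Collagen signals were mostly lower after GapmeR Ntep. Of the 27 collagen genes bright enough to be tested (a mean normalised signal of 50 or more in either group), 20 had a lower mean on the GapmeR Ntep arrays and 7 a higher mean, whereas of all 22030 tested genes 45.6% were lower and 54.4% higher. Among the 20, whatever the size or p of the difference, were the main fibroblast chains Col1a1, Col1a2 and Col3a1, the type V chains, the type IV chains Col4a1, Col4a2 and Col4a5, and the type VI chains Col6a1 and Col6a2. At an unadjusted p under 0.05, 11 collagen genes were lower, against 12.6% of all tested genes, and 1 was higher, against 12.4%. After adjustment over all tested probes, 2 genes fell (Col5a2 and Col20a1) and 1 rose (Col22a1). Among all tested genes 3.19% fell and 1.99% rose by the same criterion, limma with an adjusted p under 0.05. By the limits the study used, 2-fold or more and an unadjusted p under 0.01, 3 collagen genes were lower (Col5a2, Col5a3 and Col20a1), against 5.01% of all tested genes, and 1 was higher (Col22a1), against 2.89%. Fitting the experiments as a block brought the adjusted calls to 7 lower genes, against 7.44% of all genes, with 1 higher gene against 6.58%, and added Col5a3, Col4a2, Col4a5, Col6a1 and Col6a2 to the first pair.

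Few genes passed the adjusted limit. In 14 of the 27 genes every GapmeR Ntep array lay below every GapmeR control array, which held for 15.4% of all tested genes. Conversely, all GapmeR Ntep arrays lay above the controls only for Col22a1, against 17.2% of all genes. Within experiments, 18 genes were lower in each of the 3 pairs of arrays (27% of all tested genes) and 2 were higher in each (32.5%). Some genes passed the brightness filter only through the group in which they were high: Col20a1 through the controls, and Col13a1 and Col22a1 through the GapmeR Ntep arrays. The dimmer probes of Col4a6 and Col20a1 also passed only through the controls. Over the 20 genes that were well above background on all 6 arrays, 16 were lower, against 45.1% of all genes of that kind, and 12 were lower without overlap, against 16.5%. Without both arrays of experiment 1 the sign of the difference stayed for every tested collagen gene except Col2a1.

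**Figure D1:**
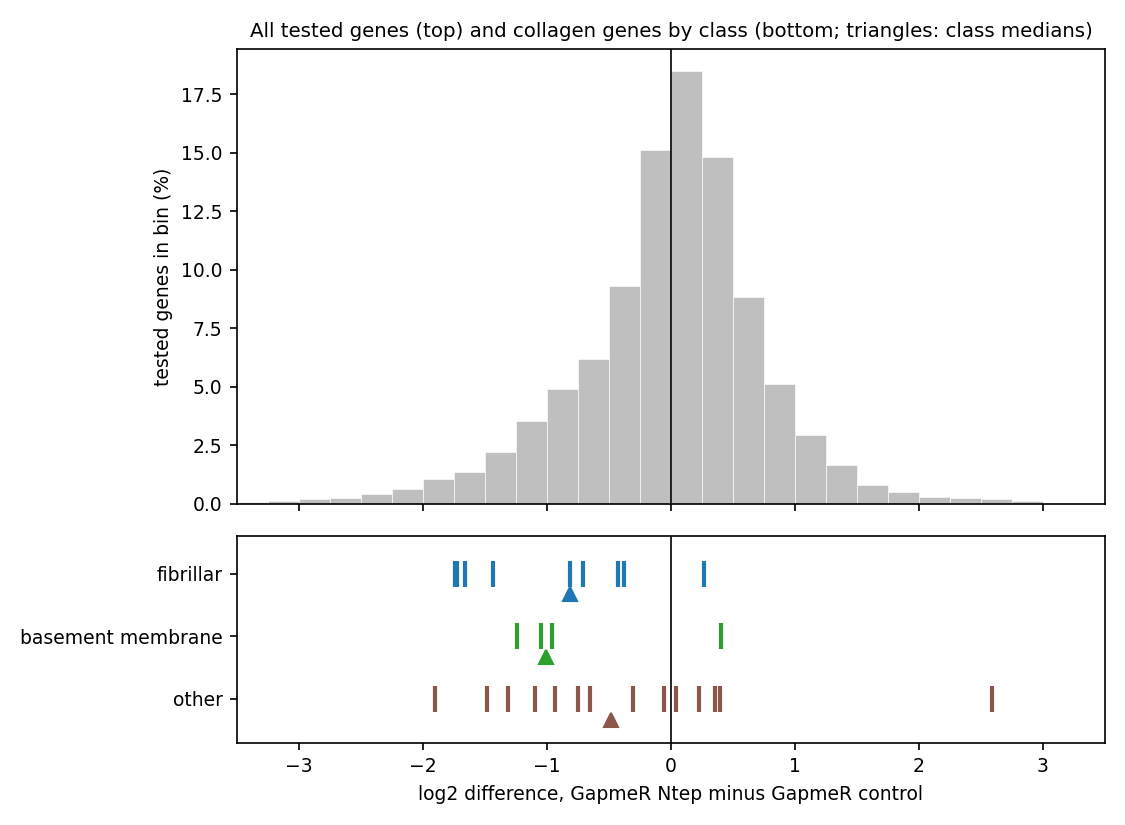
Log2 difference between GapmeR Ntep and GapmeR control for all 22030 tested genes (top, share of genes per bin of 0.25, with 84 genes beyond the axis) and for the 27 tested collagen genes by class (bottom, a tick per gene, a triangle at the class median). The class medians sit at -0.81, -1.01 and -0.48, while the median of all tested genes is 0.06.

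The median log2 difference was -0.75 over the 27 collagen genes, against 0.06 over all tested genes. By class it was -0.81 over 9 fibrillar genes, -1.01 over 4 basement membrane genes and -0.48 over 14 other genes. In single experiments the fibrillar median was -0.98, -0.53 and -0.73, the basement membrane median -1.37, -0.63 and -0.97, and the median of the other collagens -0.57, -0.34 and -0.35. All medians were thus below 0 in each experiment, and lowest in experiment 1. Without that experiment they were -0.65, -0.82 and -0.43 for the fibrillar, basement membrane and other classes. Whether the classes differ from each other was not tested.

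**Figure D2:**
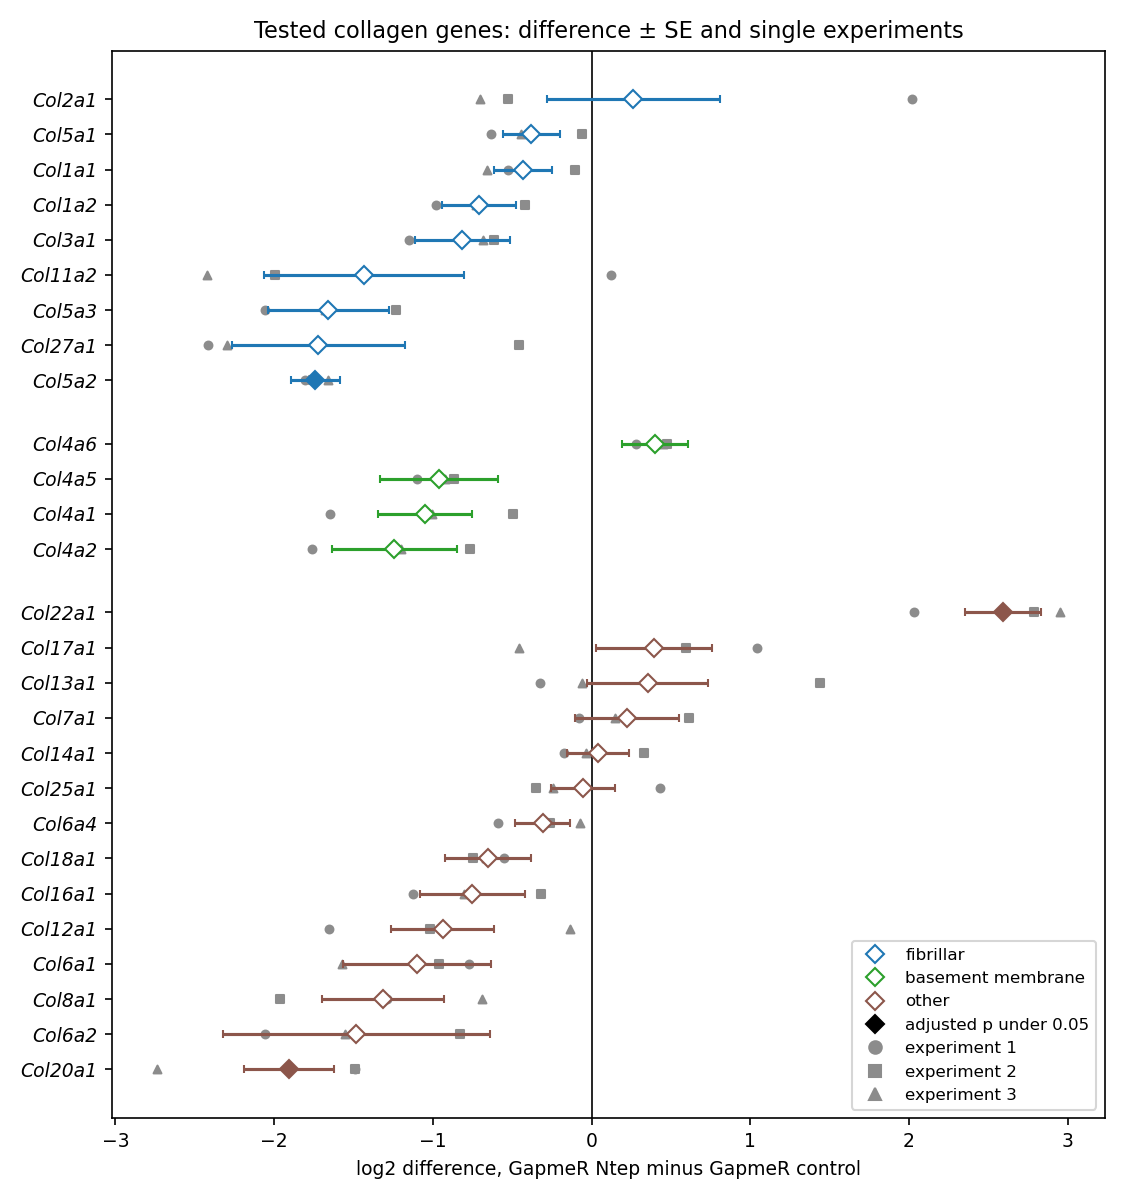
Log2 difference (horizontal axis, GapmeR Ntep minus GapmeR control) of the brightest probe of each tested collagen gene, grouped by class. Diamonds with bars give the difference ± SE over 3 against 3 arrays and are filled where the adjusted p is under 0.05 (Col5a2, Col20a1 and Col22a1), and grey symbols give the single experiments.

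Type I collagen, the most abundant protein of tendon, skin and bone, is built from Col1a1 and Col1a2 chains. Col1a1 had signals of 73029, 93959 and 70031 on the GapmeR Ntep arrays and of 105278, 101197 and 110455 on the controls. The groups did not overlap, and the difference of -0.43 ± 0.18 (log2, SE) had an adjusted p of 0.212. Col1a2 read 84354, 138569 and 93818 against 166340, 184977 and 155620. It was lower in each experiment as well, by a difference of -0.71 ± 0.24 with an adjusted p of 0.135. Col3a1, the only chain of type III collagen, which accompanies type I in elastic tissues, read 65901, 131767 and 106197 against 146120, 201540 and 170285. Its groups were also apart, with a difference of -0.81 ± 0.30 and an adjusted p of 0.164. None of these 3 genes passed either limit, and none passed after adjustment in any of the 16 alternative analyses. For Col1a1 and Col3a1 the study reported a significant reduction by qPCR with this GapmeR, in the same cell line after the same time. It also reported lower expression of both in primary mouse embryonic fibroblasts. The paper gives no such result for Col1a2.

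Type V collagen sits inside type I fibrils and sets their diameter, and its 3 chains stood at different distances from the controls. Col5a1 gave 23087, 29210 and 23087 against 35794, 30413 and 31478, a difference of -0.38 ± 0.18 (log2, SE) with an adjusted p of 0.256. Col5a2, read at chr1:45431204-45431263 of mm9, gave 1176, 1094 and 1182 against 4107, 3685 and 3743. It fell 3.34-fold (log2 -1.74 ± 0.15, adjusted p = 0.0169), with a spread within each group far smaller than the gap between them and single experiments at -1.80, -1.75 and -1.66. Col5a3 gave 2956, 7720 and 4438 against 12328, 18161 and 14225, a 3.16-fold difference (log2 -1.66 ± 0.38) with an unadjusted p of 0.00461 and an adjusted p of 0.0622. With the experiments as a block the adjusted p of Col5a3 was 0.0335. The Col5a2 call was lost when the control array of experiment 2 (adjusted p = 0.111), the GapmeR Ntep array of experiment 3 (0.0784) or the control array of experiment 3 (0.0851) was left out, with differences of -1.76 to -1.77, and without experiment 1 it stayed (-1.71, adjusted p = 0.0459).

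Differences between chains were compared directly, as the difference of 1 chain minus that of another on each array, in 7 pairs of partner or neighbouring chains. For Col5a2 against Col5a1 this gave -1.36 (log2), at -1.17, -1.69 and -1.22 in the single experiments. For Col5a3 against Col5a1 it was -1.28, and for Col5a2 against Col3a1, its neighbour on chromosome 1, -0.93. In these 3 pairs the GapmeR Ntep and control arrays did not overlap, and the exact permutation p was 0.1, the smallest that 3 against 3 arrays allow (0.233 after adjustment over the 7 pairs). Each of the 3 holds Col5a2 or Col5a3, which had already passed a limit as single genes, and they share chains. Their separation is therefore not independent of those calls. The pairs Col1a2 and Col1a1 (-0.28, exact p = 0.2), Col4a2 and Col4a1 (-0.19, exact p = 0.5), Col4a5 and Col4a6 (-1.36, exact p = 0.2) and Col6a2 and Col6a1 (-0.38, exact p = 0.9) overlapped between the groups, with adjusted p of 0.28 to 0.9. Within the single experiments, Col4a5 against Col4a6 lay at -1.38, -1.34 and -1.37, Col1a2 against Col1a1 at -0.45, -0.31 and -0.073, and Col4a2 against Col4a1 at -0.11, -0.27 and -0.20. These were of the same sign in each experiment, whereas Col6a2 against Col6a1 lay at -1.29, 0.13 and 0.013. The Col4a5 and Col4a6 pair used the brighter Col4a6 probe (0.40). The dimmer Col4a6 probe was lower than Col4a5 (-2.31 against -0.96), so with it the pair takes the other sign. That probe was not well above background on any GapmeR Ntep array.

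The remaining fibrillar genes were dimmer. Col27a1, a chain found in cartilage, read 48.0, 138 and 32.9 against 257, 189 and 162, with only 1 of the GapmeR Ntep arrays well above background. It was lower without overlap (log2 -1.72 ± 0.55, adjusted p = 0.121). Col11a2, another cartilage chain, read 245, 269 and 196 against 226, 1072 and 1052. The control array of experiment 1 stood apart here, the groups overlapped and the difference was -1.43 ± 0.63 (adjusted p = 0.226). Without that array it was -2.18 with an adjusted p of 0.0442, and without both arrays of experiment 1 -2.21 with an adjusted p of 0.0469. Col2a1, the main chain of cartilage fibrils, read 262, 142 and 132 against 64.7, 205 and 214, higher in experiment 1 and lower in the other two. Col11a1 and Col24a1 were not well above background on any array and were not tested.

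**Figure D3:**
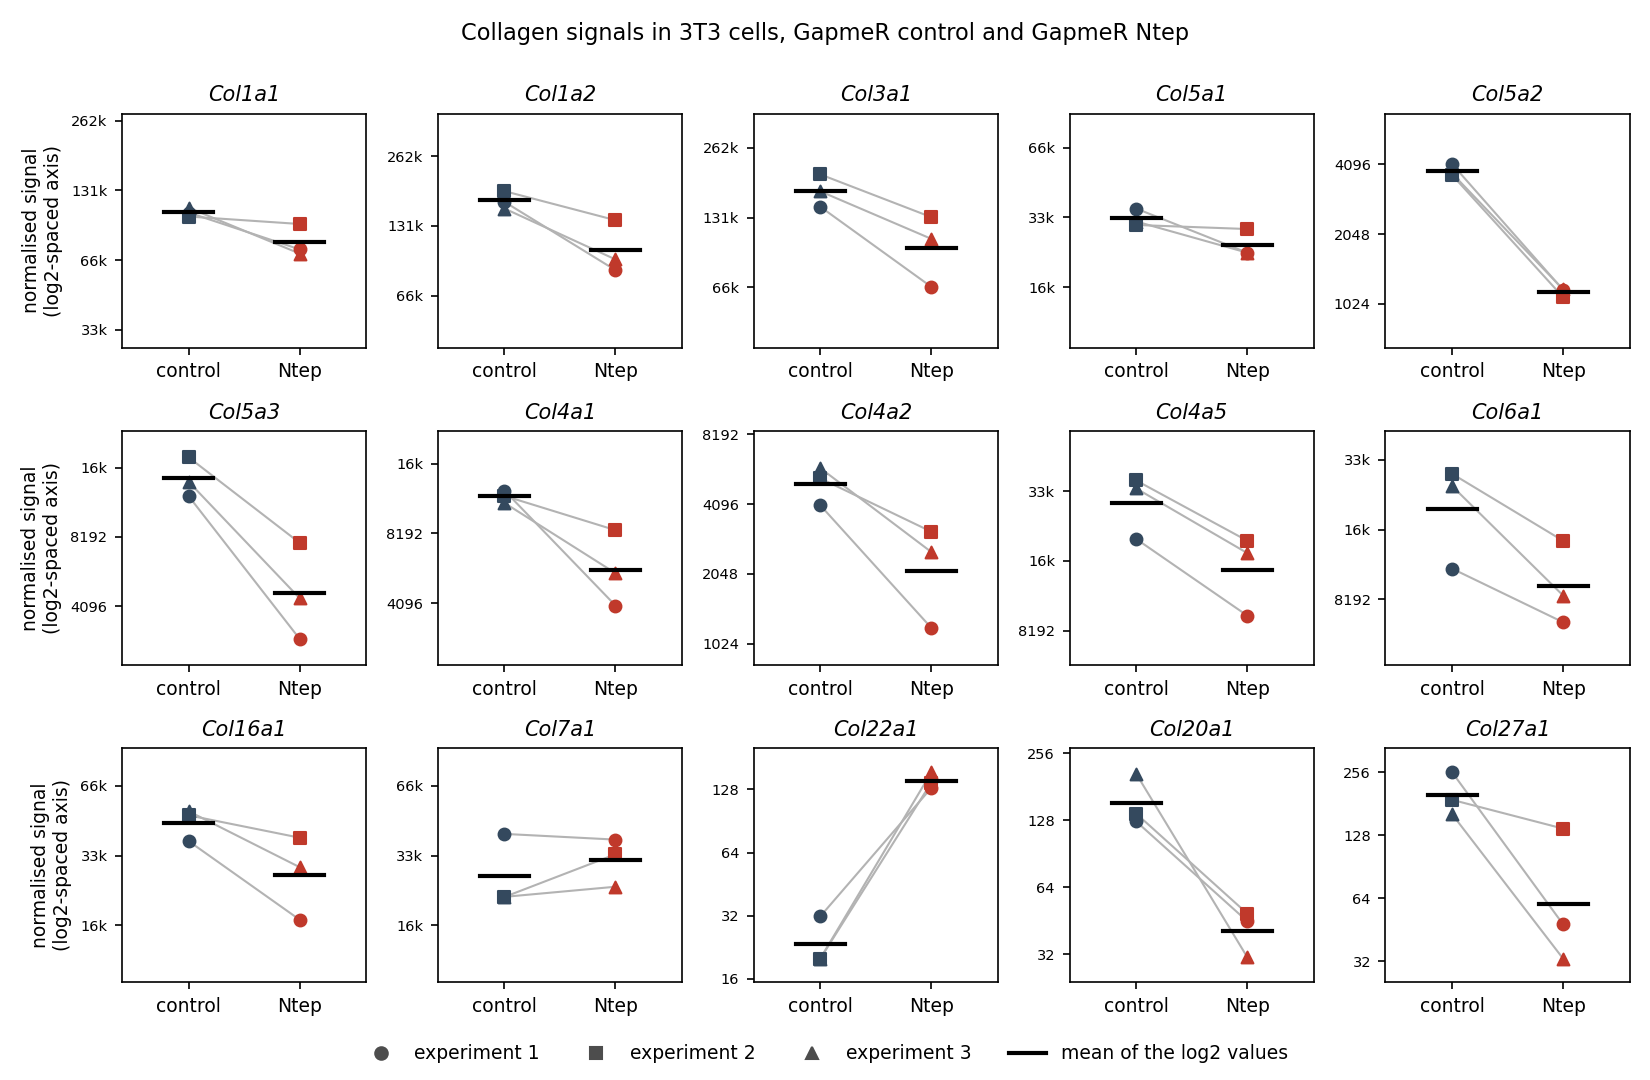
Normalised signal of 15 collagen genes on the 6 arrays (vertical axis spaced by log2, with its own range in each panel), with GapmeR control on the left and GapmeR Ntep on the right of each panel. Symbols mark the experiments, grey lines join arrays of the same experiment and black bars mark the mean of the log2 values. Col5a2 lies at 1094 to 1182 after GapmeR Ntep and at 3685 to 4107 in the controls, whereas the ranges of Col7a1 overlap and Col22a1 runs the other way.

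Sequences just upstream of 5 collagen genes are shown. Col1a2, Col3a1, Col5a1 and Col5a3 stand for chains with a lower mean, none of them at an adjusted p under 0.05 (limma, unpaired). Col7a1 stands for a bright chain without a lower mean. Each sequence is the 250 bases before the gene start in RefSeq for GRCm38.p6, read 5′ to 3′ on the gene's strand, with matches on either strand in capitals. The motifs searched were CCAAT, the GC box core, spelled GGGCGG, and the TATA box letters TATAAA. Matches were counted separately also where they overlapped.
Col1a2, chr6:4505368-4505617, plus strand: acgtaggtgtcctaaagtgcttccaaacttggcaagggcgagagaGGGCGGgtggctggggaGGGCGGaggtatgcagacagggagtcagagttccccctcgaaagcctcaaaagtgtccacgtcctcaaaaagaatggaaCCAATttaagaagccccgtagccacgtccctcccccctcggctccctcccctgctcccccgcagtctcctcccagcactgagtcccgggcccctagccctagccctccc
Col3a1, chr1:45311288-45311537, plus strand: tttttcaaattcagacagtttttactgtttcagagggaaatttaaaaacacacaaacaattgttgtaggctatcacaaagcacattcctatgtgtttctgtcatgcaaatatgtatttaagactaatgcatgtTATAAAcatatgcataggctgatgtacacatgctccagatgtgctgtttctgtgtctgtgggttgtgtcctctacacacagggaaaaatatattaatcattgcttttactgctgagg
Col5a1, chr2:27886175-27886424, plus strand: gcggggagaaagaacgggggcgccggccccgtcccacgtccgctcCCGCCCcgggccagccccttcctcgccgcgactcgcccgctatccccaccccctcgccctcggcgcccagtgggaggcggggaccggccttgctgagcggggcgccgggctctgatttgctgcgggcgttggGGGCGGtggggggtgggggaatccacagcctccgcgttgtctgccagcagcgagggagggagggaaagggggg
Col5a3, chr9:20815068-20815317, minus strand: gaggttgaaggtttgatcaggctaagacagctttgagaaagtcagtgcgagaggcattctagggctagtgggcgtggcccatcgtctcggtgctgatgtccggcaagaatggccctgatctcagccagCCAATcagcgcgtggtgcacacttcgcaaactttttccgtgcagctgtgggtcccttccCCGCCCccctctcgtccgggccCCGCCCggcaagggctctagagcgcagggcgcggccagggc
Col7a1, chr9:108953336-108953585, plus strand: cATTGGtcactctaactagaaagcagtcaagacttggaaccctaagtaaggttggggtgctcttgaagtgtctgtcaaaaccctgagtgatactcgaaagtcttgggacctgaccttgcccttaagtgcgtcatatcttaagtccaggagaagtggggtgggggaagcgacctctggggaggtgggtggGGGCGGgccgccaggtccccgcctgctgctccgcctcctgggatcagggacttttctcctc

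Of the 27 tested collagen genes, 21 had such a window, and these held 23 windows. Col1a1 and Col5a2 were among the genes without a window. The windows of Col6a2 overlapped each other, and both held GGGCGG. The letters GGGCGG were found in 16 of the 23 windows (69.6%), against 32.7% of all 32851 windows of the same length. Those 32851 windows were not limited to genes tested here. CCAAT was found in 11 windows (47.8%, against 33.8%) and TATAAA in 4 (17.4%, against 12.4%). Col1a2 and Col5a3 each held CCAAT and GGGCGG, as did Col7a1, which was not lower, while Col3a1 held only TATAAA and Col5a1 only GGGCGG. A match describes these letters only.

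Of the basement membrane collagens, Col4a1 and Col4a2 encode the chains of the common type IV network and lie head to head on chromosome 8 with a shared promoter region. Col4a1 gave 4001, 8463 and 5520 on the GapmeR Ntep arrays and 12548, 11901 and 11099 on the controls, a difference of -1.05 ± 0.30 (log2, SE) with an adjusted p of 0.0941. Col4a2 gave 1196, 3111 and 2542 against 4046, 5286 and 5852, a difference of -1.24 ± 0.39 with an adjusted p of 0.12. Both were lower in each experiment and separate between the groups, and both differences were largest in experiment 1. With the experiments as a block, Col4a2 passed (adjusted p = 0.0479) and Col4a1 did not (0.0745). Without the GapmeR Ntep array of experiment 2, Col4a1 passed (-1.33, adjusted p = 0.0475).

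Col4a5 and Col4a6 are likewise neighbours, on the X chromosome, and encode chains of minor type IV networks. Col4a5 gave 9521, 20036 and 17726 against 20388, 36458 and 33683, a difference of -0.96 ± 0.37 (adjusted p = 0.179, and 0.0354 with the block). The ranges touched closely but did not overlap, and the single experiments lay at -1.10, -0.86 and -0.93. The brighter Col4a6 probe gave 447, 353 and 403 against 368, 254 and 295, higher in each experiment by a difference of 0.40 ± 0.21 (adjusted p = 0.292). The dimmer Col4a6 probe, at chrX:137599990-137600049 of mm9, went the other way. It gave 20, 27.9 and 20 against 79.4, 134 and 128, was not well above background on any GapmeR Ntep array, and fell at least 2.24-fold (adjusted p = 0.0243). As this probe was tested only because of its control signal, its call adds no support to the count of probes that fell, 3 of 33 with it, against 3.22% of all tested probes. The bound sets the controls against the lowest signal called well above background on each GapmeR Ntep array, or against the probe's own signal where that was higher. This call was lost without the control array of experiment 2 (adjusted p = 0.128), the GapmeR Ntep array of experiment 3 (0.0956) or the control array of experiment 3 (0.103), and also without the filter on dim probes (0.0545) and with the methods' t-test (0.0614). With normexp background correction the difference was -0.74. The probes of Col4a6 thus disagreed, with the brighter at chrX:137601433-137601491, and averaging them gave -0.96 (adjusted p = 0.0334). Col4a3 and Col4a4, the chains of the glomerular network, were too dim to be tested.

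**Figure D4:**
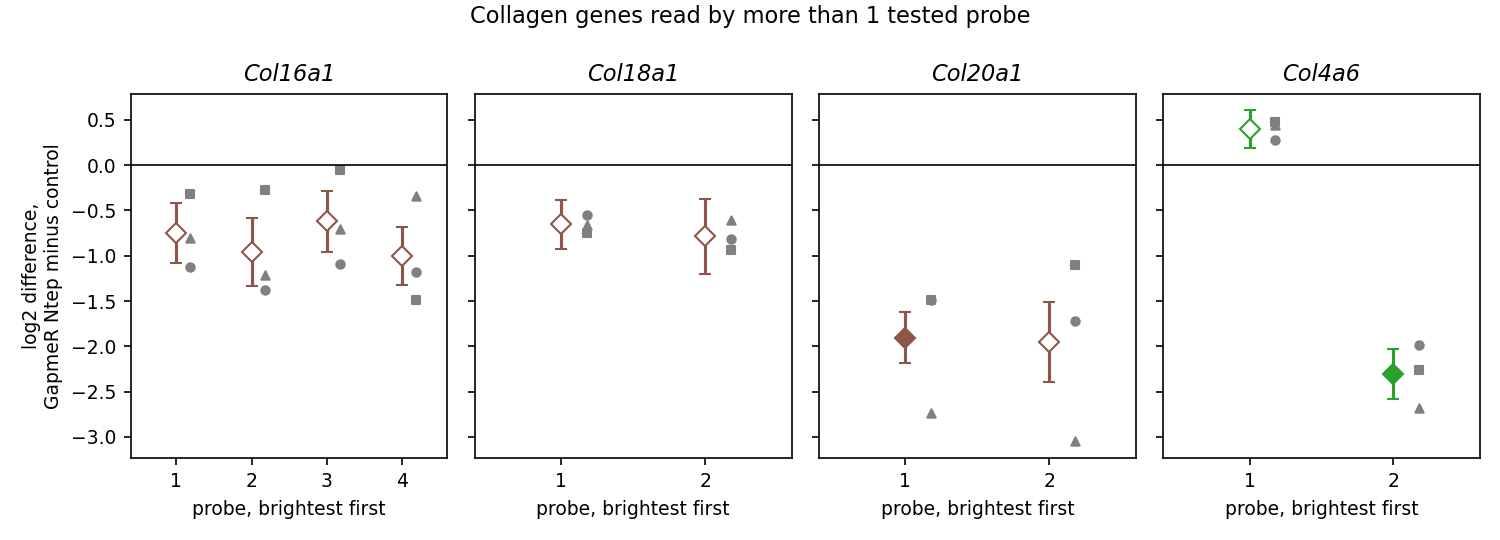
Log2 difference (GapmeR Ntep minus GapmeR control) of each tested probe of the 4 collagen genes read by several tested probes, ordered from the brightest. Diamonds with bars give the difference ± SE, filled where the adjusted p is under 0.05, and grey circles, squares and triangles give experiments 1, 2 and 3. The probes of Col16a1, Col18a1 and Col20a1 lie on the same side of 0, and those of Col4a6 on opposite sides.

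Type VI collagen, the beaded filament around fibroblasts, was represented by Col6a1 and Col6a2, neighbours on chromosome 10, and by Col6a4. No probe carried the name Col6a3 among those analysed here. Col6a1 read 6524, 14656 and 8510 against 11118, 28533 and 25260. It was lower in each experiment, at -0.77, -0.96 and -1.57, while the groups overlapped (-1.10 ± 0.47, adjusted p = 0.213, and 0.0483 with the block). Col6a2 read 40.5, 323 and 141 against 168, 575 and 413, with 2 of the GapmeR Ntep arrays well above background (-1.48 ± 0.84, adjusted p = 0.327, and 0.0472 with the block). It moved to -0.68 without the GapmeR Ntep array of experiment 1 and to -2.18 without that of experiment 2. Col6a4 read 117, 140 and 140 against 176, 168 and 147 (-0.31 ± 0.17, adjusted p = 0.322).

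Among the collagens that associate with fibrils, Col16a1 was read by 4 probes, and all of them were lower, by -0.62 to -1.01 with adjusted p of 0.12 to 0.311. Its brightest probe read 17326, 39139 and 29201 against 37858, 48881 and 50932 (-0.75 ± 0.33, adjusted p = 0.228), with -0.43 without the GapmeR Ntep array of experiment 1. Col12a1, which bridges fibrils in tendon and ligament, read 180, 210 and 231 against 568, 427 and 254. The groups did not overlap, although the pair of experiment 3 was only -0.14 apart (-0.94 ± 0.32, adjusted p = 0.144). Col14a1, a related chain, was at 65.8 to 85.3 against 67.3 to 87.2, a difference of 0.04 ± 0.20.

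Col20a1 and Col22a1, both of the same fibril-associated group, were the calls in opposite directions, and both were dim. Col20a1, read at chr2:180752070-180752129 of mm9, gave 45.0, 48.7 and 31.0 against 126, 137 and 207 and fell 3.75-fold (log2 -1.91 ± 0.28, adjusted p = 0.029), with 1 of the GapmeR Ntep arrays and all controls well above background. A second probe gave -1.96 ± 0.44 with an adjusted p of 0.0605. Both probes were tested only because of their control signal, so the second adds no support to the call. The Col20a1 call was lost in 9 of 15 alternatives, among them the omission of any array other than the GapmeR Ntep array of experiment 2 (adjusted p = 0.0596 to 0.131) and of both arrays of experiment 1 (0.0621). Col22a1, a chain known from tissue junctions of muscle and tendon, was read at chr15:71628906-71628965 of mm9 and gave 130, 138 and 155 against 31.8, 20 and 20. No control array was well above background, and the gene was tested only because of its GapmeR Ntep signal. On the quantile-normalised signals it rose at least 2.81-fold (adjusted p = 0.0181), and with normexp background correction the log2 difference was 0.85. This call was lost without the control array of experiment 2 (adjusted p = 0.111), the GapmeR Ntep array of experiment 3 (0.0784) or the control array of experiment 3 (0.084), and without experiment 1 it stayed (adjusted p = 0.0459).

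The other types gave no call. Col7a1, the anchoring fibril chain that ties epithelial basement membrane to the dermis, read 38420, 33198 and 24051 against 40665, 21725 and 21748. Its groups overlapped, and the difference was 0.23 ± 0.33 (adjusted p = 0.694), or 0.074 to 0.53 with single arrays left out. Col8a1, a network-forming chain of vessel walls, read 273, 123 and 212 against 666, 478 and 343. It was lower without overlap (-1.31 ± 0.38, adjusted p = 0.102). Col18a1, whose cleaved end is endostatin, gave -0.65 ± 0.27 and -0.79 ± 0.41 with its probes (adjusted p = 0.203 and 0.296), and the dimmer of them passed with the block (0.0465). The transmembrane chains showed no common direction, with 0.39 ± 0.36 for Col17a1 (0.13 to 0.79 with single arrays left out), 0.35 ± 0.38 for Col13a1 and -0.05 ± 0.20 for Col25a1. The 10 untested genes of the class were Col6a6, Col8a2, Col9a1, Col9a2, Col9a3, Col10a1, Col15a1, Col19a1, Col23a1 and Col28a1. Of all 14 untested collagen genes, only Col4a4 and Col9a2 were well above background on any array.

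Genes that act on the chains after translation were compared next. They hydroxylate, fold, export, trim and cross-link procollagen. Of 35 such genes on the array 31 were tested, 20 were lower, against 45.6% of all tested genes, and none fell or rose at an adjusted p under 0.05 (limma). At an unadjusted p under 0.05, 6 (19.4%) were lower, against 12.6% of all tested genes, and 1 was higher, against 12.4%. Their median log2 difference was -0.17. With the experiments as a block Adamts2 (-1.19, adjusted p = 0.0372) and Lox (-0.92, adjusted p = 0.0376) fell, 2 of 31 genes, which is no larger a share than the 7.44% of all tested genes. In 6 genes (19.4%) all GapmeR Ntep arrays lay below the controls, against 15.4% of all tested genes, and in 3 they lay above, against 17.2%.

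The steps of processing differed in their medians. The 6 tested genes of propeptide cleavage were at -0.52 in the median. Of these 5 were lower, against 45.6% of all tested genes. At an unadjusted p under 0.05 (limma), 4 were lower, against 12.6% of all tested genes, and none had an adjusted p under 0.05. The fifth lower gene, Tll1, was tested only because of its control mean of 51.4, against 45.6 on the GapmeR Ntep arrays. The median of 12 chain modification genes was -0.19. The medians of folding, secretion and cross-linking were -0.12, 0.11 and 0.18, over 3, 5 and 5 genes. Whether the steps differ was not tested.

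Of the cleavage genes, Pcolce, an enhancer of C-propeptide removal, read 125937, 165887 and 140222 against 206429, 193526 and 197170. The groups did not overlap (-0.48 ± 0.17, log2 and SE, adjusted p = 0.162). Bmp1, the C-proteinase itself, was read by 3 probes, and the probe past the study's limits gave 5523, 7665 and 5245 against 15072, 11915 and 11334 (-1.07 ± 0.23, adjusted p = 0.053, and 0.0493 with the block). Its brightest probe gave -0.52 ± 0.21 and the third -0.53 ± 0.34 (adjusted p = 0.195 and 0.381, and 0.129 and 0.17 with the block). Adamts2, an N-proteinase, read 558, 460 and 226 against 1467, 819 and 576. It was lower in each experiment and without overlap (-1.19 ± 0.48, adjusted p = 0.19). Adamts14, a related enzyme, gave -1.50 ± 0.51 with its brightest probe (adjusted p = 0.142) and 0.01 ± 0.19 with a dim one. Serpinh1, the collagen chaperone HSP47, read 121666, 108463 and 110834 against 119270, 120098 and 125147, and these ranges overlapped (-0.10 ± 0.15, adjusted p = 0.714). Other bright processing genes were Ppib and P4hb, subunits of enzyme complexes that hydroxylate procollagen, at -0.17 ± 0.16 and -0.07 ± 0.23, and the chaperone Fkbp10 at -0.12 ± 0.18 (adjusted p = 0.533 to 0.86).

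**Figure D5:**
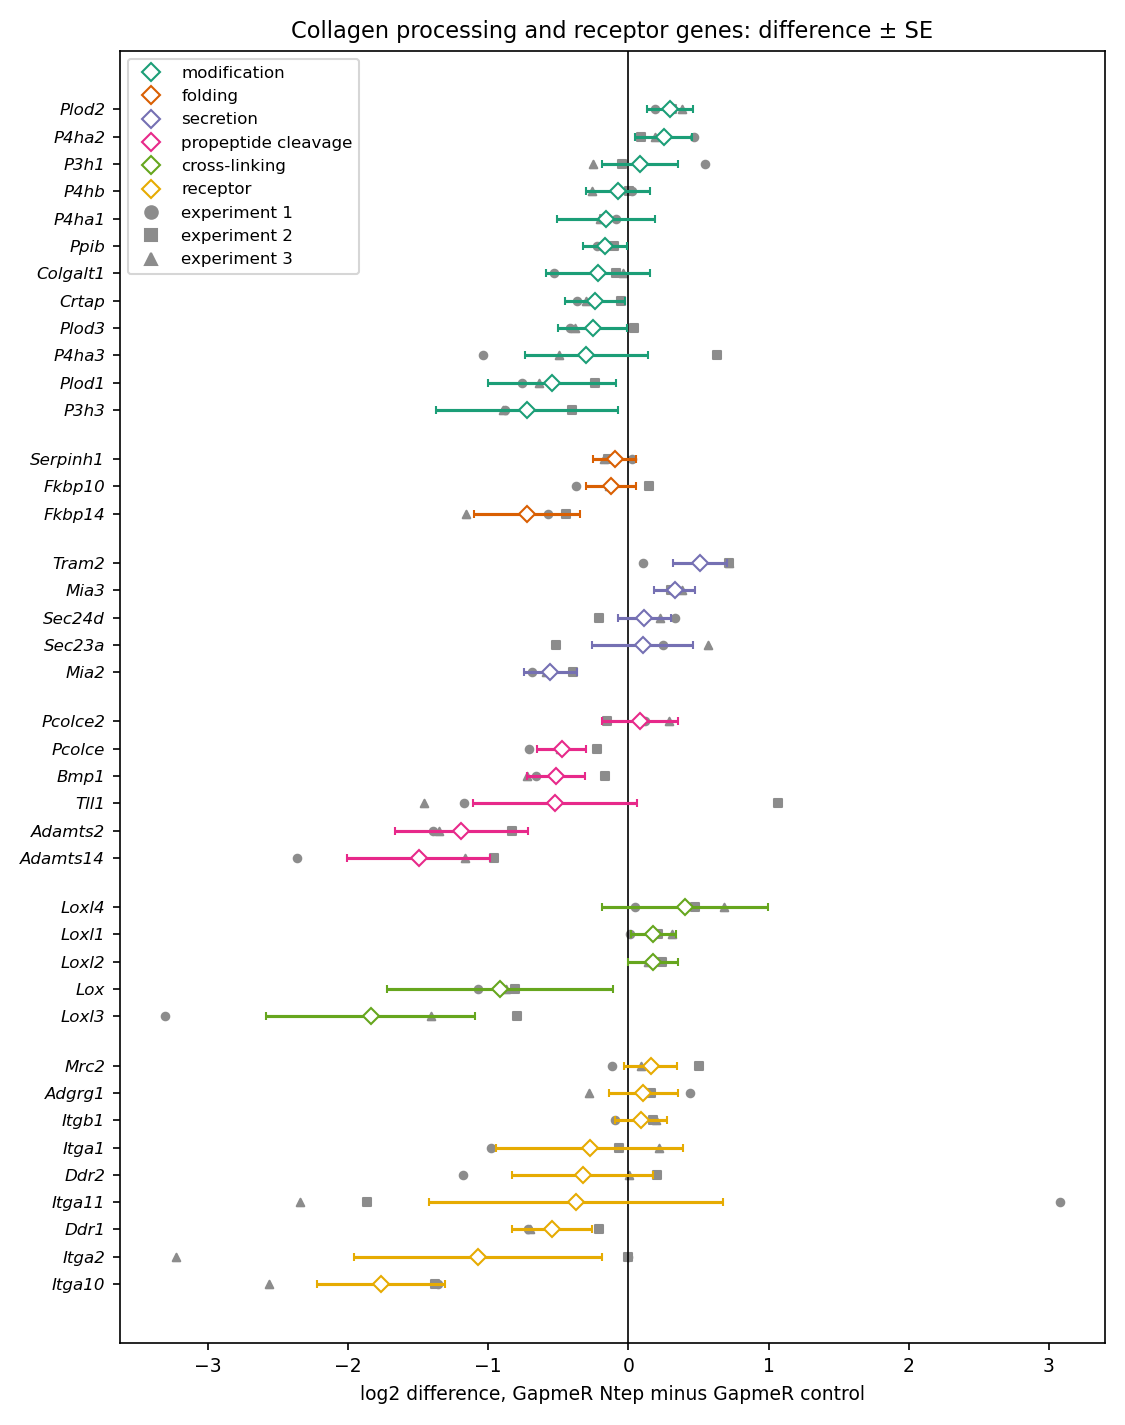
Log2 difference (horizontal axis, GapmeR Ntep minus GapmeR control) of the brightest probe of each tested collagen processing and receptor gene, grouped by step. Diamonds with bars give the difference ± SE, grey symbols give the single experiments, and no diamond is filled because no gene had an adjusted p under 0.05 in the unpaired fit.

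Of 10 collagen receptors, 9 were tested, 6 were lower, against 45.6% of all tested genes, and 3 higher, with a median of -0.33 and no adjusted call in either direction (limma, unpaired). At an unadjusted p under 0.05, 1 was lower and 0 were higher, against 12.6% and 12.4% of all tested genes. Itga2 was tested only because of 1 control array at 187, with the other 5 arrays at 20. Itga10, the integrin chain that binds type II and other collagens, read 1158, 2450 and 1257 against 2970, 6388 and 7422. The groups did not overlap, and its overlapping second probe gave a like difference (-1.77 ± 0.46 and -1.80 ± 0.44, adjusted p = 0.0783 and 0.0713). Both passed with the experiments as a block (0.0426 and 0.0397), and the brighter also when only probes well above background on all arrays were tested (0.0497). Ddr1, a receptor kinase for collagen, gave -0.54 ± 0.29 (adjusted p = 0.298).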

How the data were processed

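Total RNA from 3 GapmeR Ntep and 3 GapmeR control cultures was hybridised to 1-colour Agilent mouse arrays on 1 slide in 1 scan, so slide and scan are the same for both groups. The deposited intensities were processed signals from Agilent Feature Extraction 10.7.3.1 (per the submitters' processing notes), already background-subtracted. The authors also deposited quantile-normalised intensities with a floor of 20, used as an alternative. From the scanner files, spots of a probe were averaged without control spots and outlier flags, quantile-normalised, set to at least 20 and taken to log2 (R 4.3.3, limma 3.58.1, the data.table package, version 1.17.8). Probes whose group mean reached 50 in either group (30986) entered limma's lmFit and eBayes, two-sided and unpaired, with Benjamini-Hochberg adjustment over all of them. A gene was represented by its brightest probe by mean log2 signal (22030 genes). Between 43.7% and 53.3% of probes were well above background per array, and the number of arrays limits the precision.

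The members and lists were chosen with earlier results of these data known. By rule, the text names Col1a1, Col1a2, Col3a1, Col5a1, Col5a2, Col4a1, Col4a2, Col6a1, Col6a2 and Col6a3, each collagen with a probe past either limit, the 3 brightest tested genes of each class in the controls, neighbouring collagen pairs, processing and receptor genes past either limit and the 5 brightest processing genes. The other collagens and Adamts2, Adamts14, Lox, Mia3 and Ddr1 were added after their values were seen. The study's supplement pairs the arrays by culture day, and residuals of arrays of the same experiment correlated at 0.468, 0.301 and 0.255. Alternatives were 75th-percentile scaling, normexp, other filters, a floor of 5, the mean of a gene's probes, the experiments as a block, the methods' t-test, single arrays left out in turn and, added after seeing the data, both arrays of experiment 1 left out. Probe coordinates are those of the files (mm9), and positions within exons or UTRs were not determined. Promoter windows are RefSeq's for GRCm38.p6. The test was checked on simulated data.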

Additional observations from a re-analysis of the deposited data

How the results depend on the processing

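The collagen medians of all 3 classes stayed below 0 in all 16 alternatives, and 22 of the 27 tested genes never changed sign. Some of the 16 could not change a median or a sign. The block, the methods' t-test and dropping the filter leave the difference of each tested gene as it was. The authors' values were nearly the same as those used here. The count of lower collagen genes at an adjusted p under 0.05 (2) was 1 with 75th-percentile scaling, 1 without the filter on dim probes, 1 with the methods' t-test, 7 with the replicate block, and 0 to 5 when single arrays were left out. It was 0 without the control array of experiment 2 or either array of experiment 3, and 5 without the GapmeR Ntep array of experiment 2. The count of higher genes (1) was 0 with only the probes detected above background throughout, which leaves Col22a1 untested, and 0 to 1 with single arrays left out. By fold and unadjusted p, higher genes (1) were 2 with 75th-percentile scaling, 0 with normexp and 0 with only those probes. Lower genes (3) were 7 with the block and 2 to 5 with single arrays left out, and the methods' t-test at the same limits gave 2 lower and 1 higher. Of the processing genes 1 (Mia3) was higher without the filter and 2 were lower with the block. Leaving out single arrays moved the fibrillar median between -1.03 and -0.56, that of the other collagens between -0.71 and -0.33 and that of the receptors between -0.39 and -0.089. The median of the other collagens was -0.70 among probes well above background, and the receptor median was -0.090 with normexp and -0.060 without experiment 1. The Ntep probe ranged from -1.06 to 0.13 with single arrays left out, with 0.13 without the GapmeR Ntep array of experiment 2. Col2a1 turned to -0.048 and -0.30 without the GapmeR Ntep or control array of experiment 1 and to -0.61 without both, and ranged from -0.30 to 0.56 with single arrays left out. Col4a6 was -0.96 as the mean of its probes, and Col13a1 -0.018 with normexp. Col14a1 was -0.046 without the GapmeR Ntep array of experiment 2 and -0.017 and -0.024 without the control array of experiment 2 and 3. Col25a1 was 0.15 with 75th-percentile scaling, 0.045 without the GapmeR Ntep array of experiment 2 and 0.012 without the control array of experiment 3, and ranged from -0.18 to 0.045. The causes were not tested.

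With 3 arrays per group, leaving out 1 moved the calls over all genes from 703 lower and 439 higher to between 0 and 633 lower and between 0 and 326 higher, from fewer arrays. They were 517 and 310 with 75th-percentile scaling, 1070 and 797 with normexp, 197 and 204 without the filter, 1640 and 1449 with the block, 984 and 818 among probes well above background, and 99 and 104 with the methods' t-test. With 75th-percentile scaling the all-gene median shifted by 0.16, and relative to it the fibrillar median was -0.82 and the basement membrane median -1.14. Normexp with its offset of 50 compresses dim signals, and gave 0.85 for Col22a1 and -0.70 for Col20a1.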
